A study of Homo sapiens with 6 samples.

Results

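The m6A readers are the proteins that bind N6-methyladenosine in RNA or bind RNA whose folding that mark has changed. The 10 genes described here (YTHDF1, YTHDF2, YTHDF3, YTHDC1, YTHDC2, IGF2BP1, IGF2BP2, IGF2BP3, HNRNPA2B1 and HNRNPC) were taken by symbol, with no threshold on their values, from 61661 rows of 1 count table. All 10 passed the filter on low counts, which kept 17686 genes. The mRNA of K562, an established cell line derived from a chronic myeloid leukemia in its blast phase, was sequenced in 6 libraries. The shCTR group (2 libraries) carried a nonsense sequence and the shMETTL3 group (2 libraries) an shRNA against METTL3, in both cases as stable lines made with the lentiviral vector pLent-U6-GFP-puro. The shMETTL14 group (2 libraries) is labelled as K562 with METTL14 knockdown, and its vector is not given in the sources used here. Neither the clonal state of the lines nor the origin of the paired libraries from separate cultures is stated, so p-values measure the spread between libraries, which may be technical.

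The mark is written mainly by the METTL3 and METTL14 heterodimer, within a short sequence often read as GGACT, and is removed by FTO and ALKBH5. The YTHDF proteins bind it in the cytoplasm through their YTH domain, YTHDC1 binds it in the nucleus, and YTHDC2 joins a YTH domain to an RNA helicase. The IGF2BP proteins hold bound mRNAs stable, while HNRNPA2B1 and HNRNPC are abundant nuclear proteins that process pre-mRNA. The values below are mRNA levels and not protein or m6A.

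Library totals lay between 19292574 and 20115304 counts. METTL3 was at 90.6 and 90.4 CPM (counts relative to library size, scaled by TMM factors) in shCTR and 52.6 and 46.8 in shMETTL3, a log2 fold change of -0.87. METTL14 was at 33.2 and 34.3 CPM in shCTR and 19.1 and 20.6 in shMETTL14, a log2 fold change of -0.76. Both targeted genes thus lay below every shCTR library in the cells labelled for them. All 9 erythroid markers of K562 were above the floor of 3 reads, and 5 of 7 myelomonocytic markers were at or under it in every library, among them FLT3 and HOXA9 with no reads. The erythroid markers summed to between 1725 and 1739 CPM in shCTR, 1904 and 1909 in shMETTL3, and 1732 and 1750 in shMETTL14. Single erythroid markers did not all move as this sum did. HBE1 and HBZ rose with it in shMETTL3, while TFRC did not. HBE1 was at 198 and 220 CPM in shCTR and 382 and 433 in shMETTL3. HBZ was at 5.57 and 5.81 CPM in shCTR and 10.2 and 12.9 in shMETTL3. TFRC, the largest part of the sum, was at 896 and 793 CPM in shCTR and 814 and 741 in shMETTL3, with overlap. The other two myelomonocytic markers moved with the groups: LYZ was at 42.1 and 43.9 CPM in shCTR, 16.5 and 15.5 in shMETTL3 and 60.0 and 65.0 in shMETTL14, and MEIS1 was at 9.88 and 9.31, 5.15 and 5.94, and 8.10 and 8.58. Whether these marker shifts bear on the readers was not tested.

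The sequence GGACT was counted on the sense strand of the coding sequence and 3′ UTR of each reader's longest coding transcript (GENCODE 29, GRCh38), because the readers' mRNAs may themselves carry the mark. It stood 9 times in IGF2BP1, 5 in IGF2BP2, 4 in YTHDC2, 3 each in YTHDF2 and YTHDC1, 2 each in YTHDF3, IGF2BP3 and HNRNPC, 1 time in YTHDF1 and 0 times in HNRNPA2B1. Among 12451 tested coding transcripts, 89.78% held it at least 1 time, with a median of 0.913 per kb. The densest reader was IGF2BP2 at 1.39 per kb (the 74.9 percentile of these transcripts), followed by HNRNPC at 1.29 (the 70.7 percentile). YTHDF2 and IGF2BP1 also lay above the median. YTHDF1, YTHDF3, YTHDC1, YTHDC2, IGF2BP3 and HNRNPA2B1 lay below it. A match is a description of the sequence and was not measured as methylated. For 7 readers the following lines give 29 bases of coding sequence around the coding match nearest the stop codon that lies within 1 exon. GGACT is in capitals, so that relatives can be compared. YTHDC1 and HNRNPA2B1 held 0 coding matches, and no line is given for YTHDF3, which held 2. The 3′ UTR matches were not candidates, though IGF2BP1 held 7 of its 9 matches there and IGF2BP3 held 1 of 2. Within the coding sequence, nearest does not mean near. The match lay 1604 bases before the end of the coding sequence in IGF2BP1 and 1610 in IGF2BP3. In the other readers it lay from 199 (YTHDC2) to 667 bases (IGF2BP2) before that end. YTHDF1 lies at chr20:63202556-63202584 (minus strand), YTHDF2 at chr1:28743689-28743717 (plus), YTHDC2 at chr5:113592044-113592072 (plus), IGF2BP1 at chr17:48997859-48997887 (plus), IGF2BP2 at chr3:185672596-185672624 (minus), IGF2BP3 at chr7:23469969-23469997 (minus) and HNRNPC at chr14:21230335-21230363 (minus).
YTHDF1: gaagtcccccgtGGACTacggcaccagtg
YTHDF2: gaaatctgctgtGGACTacaacacatgtg
YTHDC2: tggggctctgctGGACTaggaggagtatt
IGF2BP1: ctacgccttcgtGGACTgcccggacgagc
IGF2BP3: ctacgcgttcgtGGACTgcccggacgaga
IGF2BP2: atcttttcaacaGGACTgtccgtgctatc
HNRNPC: ctcttttgacttGGACTatgactttcaac

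The windows of YTHDF1 and YTHDF2 shared 21 of 29 positions, and those of IGF2BP1 and IGF2BP3 shared 27 of 29. The IGF2BP2 window came from another place in its coding sequence and shared 13 positions with IGF2BP1 and 12 with IGF2BP3. All these numbers include the letters of GGACT, which are the same in every window by design.

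Per length of gene (CPM per kb of the union of exons), the nuclear hnRNP readers were the most abundant in shCTR cells. HNRNPA2B1 averaged 149 and HNRNPC 120, which placed them at the 98.7 and 98.3 percentiles of tested genes. IGF2BP1, which binds MYC mRNA, followed at 30.9, then YTHDF2 at 20.8 and YTHDF1 at 20.1. Below these came IGF2BP2 at 14.7, YTHDC1 at 14.5, IGF2BP3 at 13.3, YTHDF3 at 10.0 and YTHDC2 at 8.14. The libraries of IGF2BP2 overlapped those of YTHDC1, and those of YTHDC1 overlapped those of IGF2BP3, so these neighbours were not separated by their spread. YTHDF2 and YTHDF1 did not overlap but differed by less than 1 CPM per kb in their means. With the length of the longest transcript in place of the union of exons, IGF2BP3 rose to 26.5 and the fifth place, ahead of YTHDF1, and YTHDC2 passed YTHDF3.

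**Figure D1:**
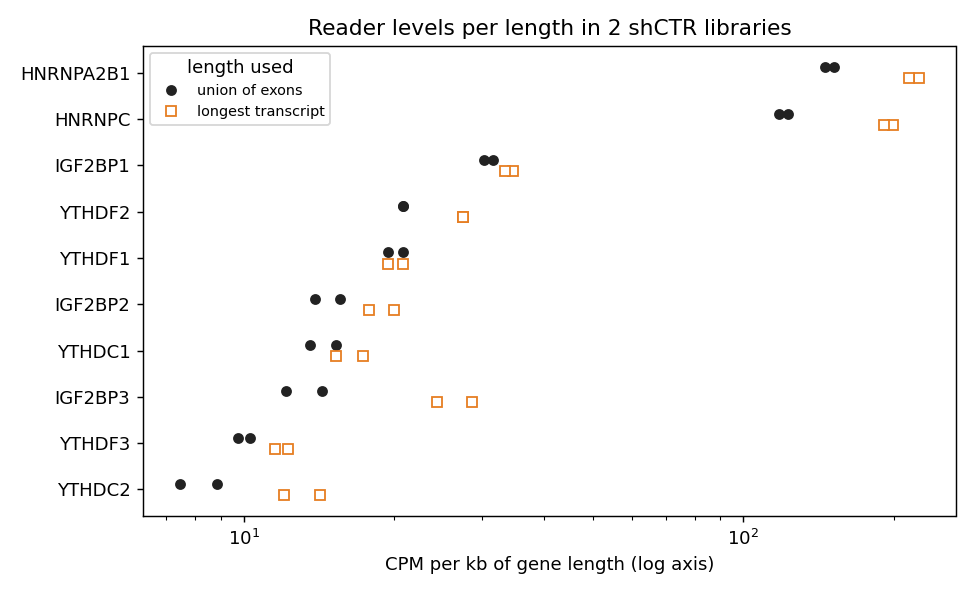
Level of each reader in the 2 shCTR libraries, as CPM per kb on a log axis, with filled circles for the union of exons and open squares for the longest transcript. HNRNPA2B1 and HNRNPC stand far to the right of the other readers under both lengths, and IGF2BP3 shifts most between the lengths.

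The first comparison asked which readers differ after METTL3 knockdown. HNRNPC and HNRNPA2B1 were lower in shMETTL3 than in shCTR, and no reader was higher past the threshold (edgeR's quasi-likelihood test, Benjamini-Hochberg adjusted p under 0.05). These were 2 of 10 readers, beside 16.5% of all tested genes called in either direction, 8.73% called higher and 7.73% called lower. DESeq2 also called 2. At an unadjusted p under 0.05 stood 4 of 10 (HNRNPC, HNRNPA2B1, YTHDC1 and IGF2BP2, all lower), beside 29.9% of all genes. The count of 2 rested in part on single libraries: it was 5 without shCTR replicate 2, and 1 without shCTR replicate 1 or without either shMETTL3 library. The median log2 fold change of the readers was -0.10, beside 0.003 over all genes. The libraries of the groups did not overlap for 7 of 10 readers, beside 56.0% of all genes. Scaling by library size alone changed the split over all genes from 1544 higher and 1368 lower to 2161 higher and 855 lower.

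HNRNPC, which binds uridine tracts opened by m6A, was at 898 and 860 CPM in the shCTR libraries, 731 and 731 in shMETTL3, and 821 and 798 in shMETTL14. Both shMETTL3 libraries lay below all others, and both shMETTL14 libraries lay between the other groups. The shMETTL3 level was 0.831 of the shCTR level (95% interval 0.769 to 0.898), a log2 fold change of -0.27 with a standard error of 0.0533 (edgeR adjusted p = 0.00182). In all 14 alternative settings the call held, with log2 fold changes from -0.30 to -0.18 and adjusted p from 2.59e-05 to 0.0473. HNRNPC spans chr14:21209136-21269494 on the minus strand. The 9 annotated HNRNPC pseudogenes in the table held between 1037 and 1152 reads in a library, 5.95% to 7.43% of the HNRNPC count, so some exchange of reads with these copies cannot be told apart from the gene's own level.

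HNRNPA2B1, the reader linked to primary microRNA processing and to splicing, was at 1409 and 1351 CPM in shCTR, 1225 and 1222 in shMETTL3 and 1374 and 1272 in shMETTL14. The shMETTL3 libraries lay below both other groups, while shMETTL14 overlapped shCTR. Its shMETTL3 level was 0.886 of shCTR (95% interval 0.819 to 0.959), a log2 fold change of -0.17 with a standard error of 0.0542 and an adjusted p of 0.0324 (edgeR). Unlike that of HNRNPC, this call held in only 9 of 14 alternative settings. It was lost with library size alone (-0.12, adjusted p = 0.145), with a trend on GC content and gene length removed (-0.12, adjusted p = 0.0677), without shCTR replicate 1 (-0.15, adjusted p = 0.0956), without shMETTL3 replicate 1 (-0.18, adjusted p = 0.184) and without shMETTL3 replicate 2 (-0.17, adjusted p = 0.228), all by edgeR. HNRNPA2B1 (chr7:26173057-26201529, minus strand) shares 368 exon bases with CBX3 on the opposite strand, and whether the counting used strand is not given in the sources used here. CBX3, a heterochromatin protein, averaged 363 CPM in shCTR, 287 in shMETTL3 and 364 in shMETTL14, with log2 fold changes of -0.34 and 0.003 from shCTR. The part of these shared bases in the HNRNPA2B1 value was not tested.

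Together the hnRNP readers summed to 275 and 263 CPM per kb in shCTR, 232 and 232 in shMETTL3 and 261 and 246 in shMETTL14. HNRNPC made up 44.7% of that sum in both shCTR libraries and 43.1% in both shMETTL3 libraries.

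Since HNRNPC and HNRNPA2B1 were the readers called lower, their promoters were searched for CCAAT, the letters bound by the factor NF-Y, on both strands (ATTGG on the other) from 250 bases before to 50 after the start given by RefSeq (GRCh38.p14). HNRNPC held 3 matches and HNRNPA2B1 held 1. Of the readers that were not called lower, YTHDF1, YTHDC2 and a single listed start each of YTHDF2 and IGF2BP2 also held 1. The YTHDF1 match began 18 bases after the start. YTHDC1, IGF2BP3 and the other listed starts of YTHDF2 and IGF2BP2 held 0. For YTHDF3 and IGF2BP1 no promoter entry was used, so these readers were not searched. Of 35116 promoters of that length, not limited to those of tested genes, 34.61% held at least 1 match and 3.26% at least 3. The HNRNPC matches began 230, 119 and 54 bases before the start. The lines below give the 198 bases of that window outside the annotated HNRNPC gene, at chr14:21269495-21269692 (minus strand), and 30 bases around the HNRNPA2B1 match, at chr7:26200830-26200859 (minus strand), with matches in capitals. The HNRNPC match at 54 is cut by the end of its stretch, so it is not in capitals and 2 matches are shown. Unlike the HNRNPC stretch, the HNRNPA2B1 stretch lies inside the annotated gene, whose GENCODE start is upstream of the RefSeq start used. A match is not a bound site, and no binding was measured. Whether these matches bear on the levels was not tested.
HNRNPC: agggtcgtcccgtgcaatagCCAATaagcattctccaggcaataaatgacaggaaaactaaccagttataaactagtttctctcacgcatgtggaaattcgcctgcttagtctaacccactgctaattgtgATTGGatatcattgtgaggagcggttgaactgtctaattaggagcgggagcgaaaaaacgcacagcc
HNRNPA2B1: agccttcccgccATTGGcggcggatagggc

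**Figure D2:**
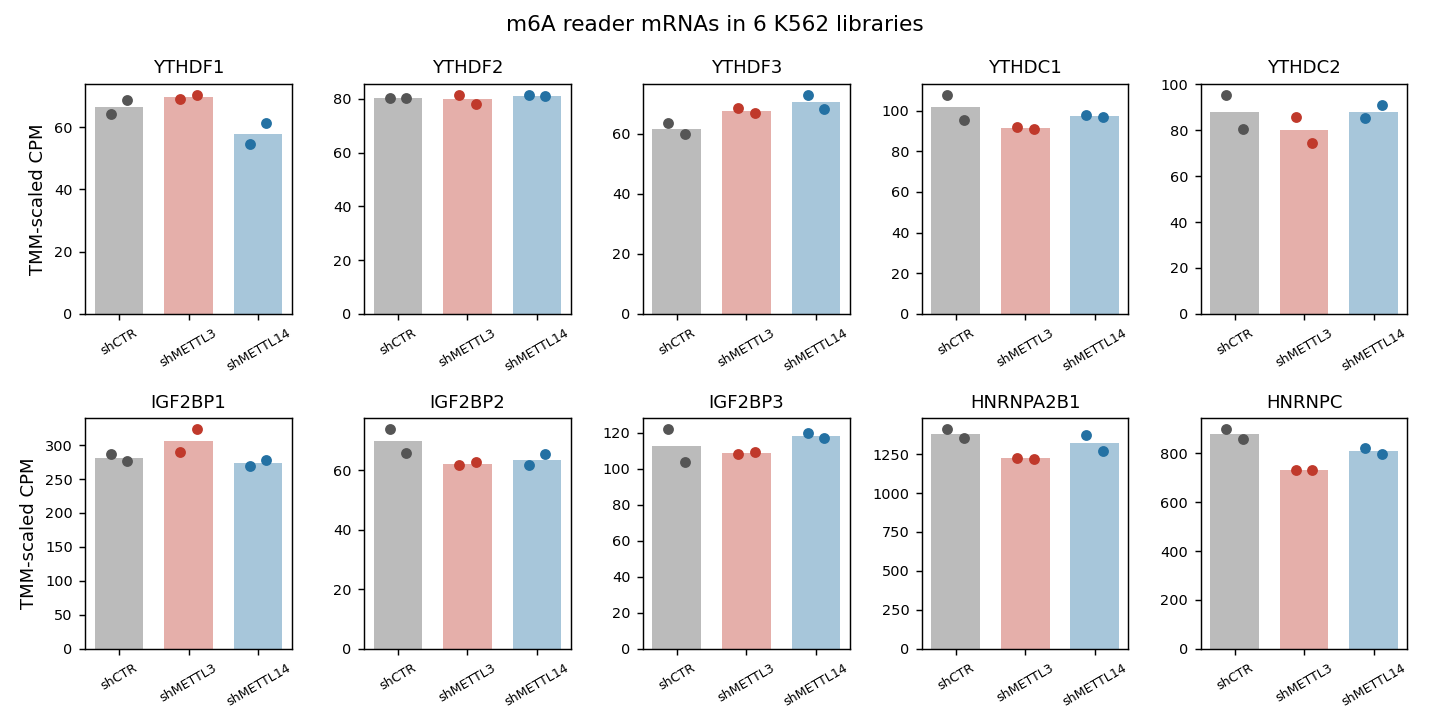
TMM-scaled CPM of each reader, with points for single libraries and bars for the mean of 2 libraries in shCTR, shMETTL3 and shMETTL14, each panel on its own axis from 0. HNRNPC sits at 731 CPM in both shMETTL3 libraries, below its 4 other libraries, and YTHDF1 is lowest in the shMETTL14 libraries.

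Among the cytoplasmic YTHDF readers, YTHDF1, which is linked to translation of marked mRNAs, was at 64.2 and 68.7 CPM in shCTR, 69.0 and 70.4 in shMETTL3 and 54.6 and 61.2 in shMETTL14. Both shMETTL14 libraries lay below the shCTR and shMETTL3 libraries. From shCTR its fold was 1.05 in shMETTL3 (95% interval 0.946 to 1.17) and 0.872 in shMETTL14 (0.785 to 0.969), with edgeR adjusted p of 0.554 and 0.119. With a trend on GC content and gene length removed, the shMETTL14 value was -0.21 and passed (adjusted p = 0.0425). YTHDF2, which recruits the CCR4-NOT deadenylase, was at 80.4 and 80.4 CPM in shCTR, 81.6 and 78.1 in shMETTL3 and 81.6 and 81.0 in shMETTL14. It was the steadiest reader by its group means, with folds of 0.993 (95% interval 0.904 to 1.09) and 1.01 (0.921 to 1.11) from shCTR. YTHDF3 was at 63.6 and 59.9 CPM in shCTR, 68.5 and 67.1 in shMETTL3 and 73.1 and 68.4 in shMETTL14. Both knockdowns lay above shCTR without overlap, with log2 fold changes of 0.13 and 0.20 and edgeR adjusted p of 0.200 and 0.0978, so neither passed the threshold. With the same trend removed, both knockdowns passed, at 0.22 (adjusted p = 0.0118) and 0.24 (adjusted p = 0.0103), and the knockdowns share the shCTR libraries.

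The YTHDF readers together summed to 50.6 and 51.4 CPM per kb in shCTR, 53.2 and 52.4 in shMETTL3 and 49.5 and 50.6 in shMETTL14. YTHDF3 took 20.4% and 18.9% of that sum in shCTR and 24.0% and 21.9% in shMETTL14, while YTHDF1 took 38.4% and 40.5% in shCTR and 33.4% and 36.6% in shMETTL14.

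YTHDC1, the nuclear reader that acts on splicing and mRNA export, was at 108 and 95.3 CPM in shCTR, 92.1 and 91.0 in shMETTL3 and 98.1 and 97.1 in shMETTL14. Its shMETTL3 libraries lay below the others, with a fold of 0.901 (95% interval 0.815 to 0.995) and an edgeR adjusted p of 0.146. YTHDC2, the helicase needed for meiosis, was at 95.5 and 80.7 CPM in shCTR, 85.6 and 74.4 in shMETTL3 and 85.3 and 90.8 in shMETTL14. Its groups overlapped in every comparison and its shMETTL3 fold had an interval of 0.805 to 1.02. For both genes shCTR replicate 1 stood above the other libraries, and without shCTR replicate 2 the call changed to lower in shMETTL3, at -0.24 (YTHDC1, adjusted p = 0.0131) and -0.26 (YTHDC2, adjusted p = 0.0275) by edgeR.

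IGF2BP1 was at 287 and 276 CPM in shCTR, 290 and 323 in shMETTL3 and 269 and 278 in shMETTL14. Its shMETTL3 libraries were the highest, with a fold of 1.09 from shCTR (95% interval 0.994 to 1.19, edgeR adjusted p of 0.198). IGF2BP2, which is also tied to metabolism, was at 73.8 and 65.7 CPM in shCTR, 61.7 and 62.7 in shMETTL3 and 61.7 and 65.5 in shMETTL14. Both knockdowns lay under shCTR, with folds of 0.892 (0.803 to 0.990) and 0.912 (0.822 to 1.01) and edgeR adjusted p of 0.128 and 0.310. Without shCTR replicate 2, the IGF2BP2 log2 fold change in shMETTL3 was -0.25 and passed (adjusted p = 0.0170). IGF2BP3 was at 122 and 104 CPM in shCTR, 108 and 109 in shMETTL3 and 120 and 117 in shMETTL14, and its knockdown groups lay between the shCTR libraries. Of the exon bases of IGF2BP3, 17.9% are shared with MALSU1 on the opposite strand, whose log2 fold change was 0.01 in shMETTL3 and -0.10 in shMETTL14. IGF2BP1 held 51.3% and 53.8% of the family sum per kb in shCTR, 55.3% and 57.6% in shMETTL3, and 52.1% and 52.5% in shMETTL14.

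**Figure D3:**
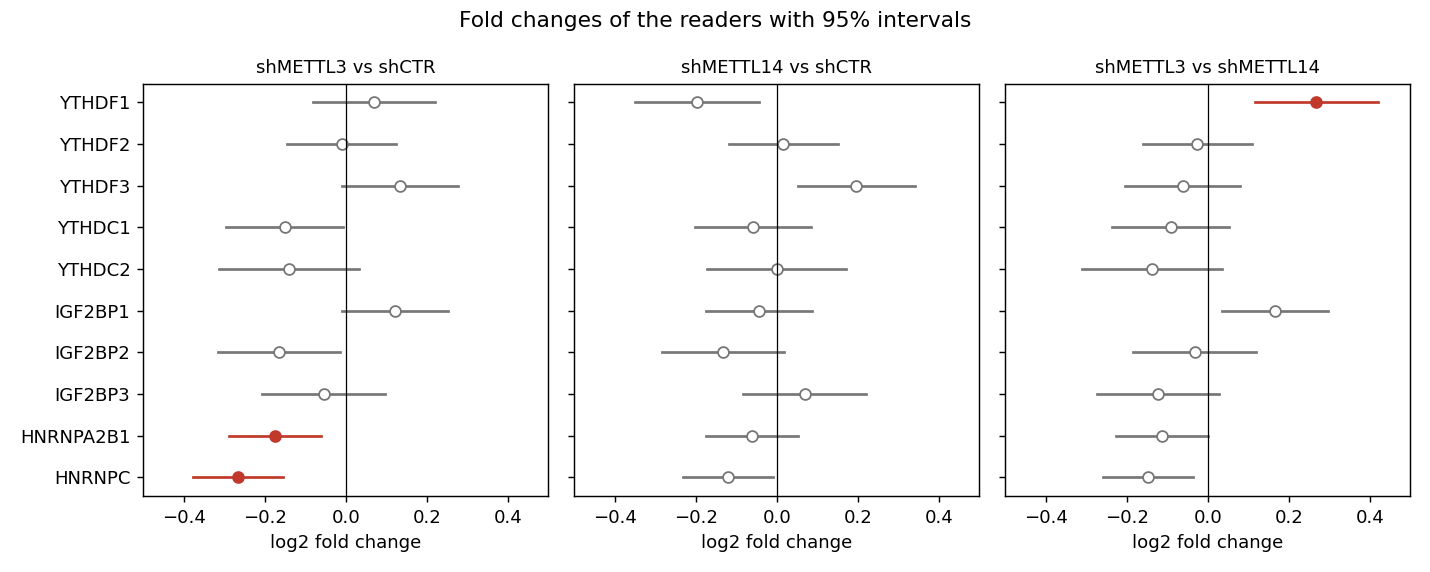
Log2 fold change of each reader with its 95% interval in the 3 comparisons, filled red where the edgeR adjusted p is under 0.05. The filled points are HNRNPC at -0.27 and HNRNPA2B1 at -0.17 in shMETTL3 against shCTR, and YTHDF1 at 0.27 in shMETTL3 against shMETTL14.

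The second comparison asked the same of METTL14 knockdown. None of the 10 readers passed the threshold by edgeR, and 0 passed by DESeq2, beside 6.69% of all tested genes called in edgeR (3.43% higher and 3.26% lower). At an unadjusted p under 0.05 stood 3 of 10 (YTHDF1, YTHDF3 and HNRNPC), beside 20.7% of all genes. The median over the readers was -0.05, and 5 of 10 had groups that did not overlap, beside 48.9% of all genes. HNRNPC was at 0.920 of shCTR (95% interval 0.852 to 0.994, edgeR adjusted p of 0.204), and HNRNPA2B1 at 0.959 (0.886 to 1.04). A p that misses the threshold does not show that these levels were alike.

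The third comparison set the knockdowns against each other, which tests whether their effects differ, without shared controls. YTHDF1 was higher in shMETTL3 than in shMETTL14, the single call among 10 readers, beside 12.1% of all genes (6.65% higher and 5.49% lower). At an unadjusted p under 0.05 stood 4 of 10 readers and 25.0% of all genes, and 6 of 10 had groups without overlap, beside 56.7% of all genes. Its fold was 1.20 (95% interval 1.08 to 1.34), a log2 fold change of 0.27 with a standard error of 0.0727 and an adjusted p of 0.0186 (edgeR). That call was lost without shMETTL3 replicate 1 (0.28, adjusted p = 0.0949), without shMETTL3 replicate 2 (0.26, adjusted p = 0.153) and without shMETTL14 replicate 1 (0.19, adjusted p = 0.315), and held in the other 11 settings. For HNRNPC the difference was -0.15 (adjusted p = 0.0809) and for IGF2BP1 0.17 (adjusted p = 0.0965), neither past the threshold by edgeR. These calls depended on the setting: HNRNPC passed in 5 of 14 settings, with the compared groups only, with the replicate block (alone or with the GC and length correction) and without shCTR replicate 1 or 2 (-0.15 and adjusted p = 0.0221 in both). IGF2BP1 passed in 4 of 14, with library size alone, with the compared groups only, without shCTR replicate 1 (0.16, adjusted p = 0.0451) and without shCTR replicate 2 (0.16, adjusted p = 0.0426).

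Other genes of the pathway were read from lists. Of 11 other proteins described as binding m6A or m6A-switched RNA, 4 fell in shMETTL3, 0 rose, and their median was -0.10, where 7.73% of all genes fell and 8.73% rose. FXR1, a relative of FMR1, was at 163 and 159 CPM in shCTR and 135 and 136 in shMETTL3, a log2 fold change of -0.25 (adjusted p = 0.00770). LRPPRC, a regulator of mitochondrial mRNA, had a log2 fold change of -0.23 (adjusted p = 0.0111) and RBMX, an RNA-binding splicing factor, one of -0.22 (adjusted p = 0.00928), both by edgeR. In shMETTL14, 0 of 11 passed by edgeR, 2 had an unadjusted p under 0.05 and 1 passed by DESeq2. FXR1, LRPPRC and RBMX were there at -0.10, -0.18 and -0.18.

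Of 14 writers and erasers, 2 fell and 1 rose in shMETTL3, and 1 fell and 1 rose in shMETTL14, with each targeted gene among those that fell. The shares called over all genes were 16.5% and 6.69%. Beside METTL3, METTL5, an enzyme that methylates ribosomal RNA, fell in shMETTL3 by 0.26 on the log2 scale (97.0 and 97.5 CPM in shCTR, 79.1 and 83.2 in shMETTL3). ALKBH5, a demethylase, rose by 0.25, from 44.1 and 49.9 CPM to 55.8 and 55.8, but not by DESeq2. Beside METTL14, RBM15B, an adaptor of the writer complex, rose in shMETTL14 by 0.30 (adjusted p = 0.0273 by edgeR), from 35.0 and 40.6 CPM to 46.8 and 46.4, but not by DESeq2.

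Of 25 decay factors that work with YTHDF2 or YTHDC2, POP1, a subunit of RNase P and MRP, was the 1 that fell in shMETTL3 (-0.35), and not by DESeq2. Of 7 nuclear partners of YTHDC1 and HNRNPA2B1, the splicing factor SRSF7 fell (-0.19), and of 7 proteins of the IGF2BP particle, PABPC1, the poly(A)-binding protein, fell (-0.16). Neither SRSF7 nor PABPC1 was called lower with library size alone. Over all tested genes, 16.5% were called in shMETTL3 and 7.73% were called lower. In shMETTL14, 0 genes of these 3 lists passed by edgeR and by DESeq2, and 4, 0 and 1 had an unadjusted p under 0.05. Over all tested genes, 6.69% were called there by edgeR and 20.7% had an unadjusted p under 0.05.

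Of 9 listed hnRNP relatives of HNRNPA2B1 and HNRNPC, 4 were tested, and 2 fell in shMETTL3. Over all tested genes, 7.73% fell and 16.5% were called in either direction. HNRNPA1, a splicing repressor, was at 3300 and 3338 CPM in shCTR, 2689 and 2699 in shMETTL3 and 2966 and 3056 in shMETTL14. HNRNPA3 was at 819 and 830, 692 and 665, and 764 and 767. As for HNRNPC, both shMETTL3 libraries lay lowest and the shMETTL14 libraries between the other groups. The log2 fold changes in shMETTL3 were -0.30 (adjusted p = 0.000262) and -0.28 (adjusted p = 0.00117) by edgeR, and those in shMETTL14, -0.14 and -0.11, did not pass. HNRNPA0 and RALY were at 0.03 and -0.07 in shMETTL3. The table holds 74 pseudogene rows named after HNRNPA1 and 16 after HNRNPA3, with 1.30% to 2.02% and 1.36% to 1.69% of the parent counts, so the counts of these paralogs are uncertain to some extent.

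Among 15 tested transcripts described as m6A-controlled in leukemia, 3 fell in shMETTL3 and 1 in shMETTL14, beside 16.5% and 6.69% of all genes called in either direction, and their medians were 0.06 and -0.04. MYB, a transcription factor of blood progenitors, was at 282 and 275 CPM in shCTR, 233 and 223 in shMETTL3 and 234 and 229 in shMETTL14, a fall of 0.29 and 0.26 on the log2 scale (edgeR adjusted p of 0.00214 and 0.00853). MYC, an mRNA bound by the IGF2BP proteins, fell in shMETTL3 by 0.20 (378 and 394 CPM against 324 and 350). ALDH1A1, an aldehyde dehydrogenase, fell by 0.24. With library size alone, 1 of the 15 was called lower and 1 higher in shMETTL3. Of 3 tested transcripts regulated by the microRNA let-7, LIN28A rose in both knockdowns. It had 24 and 29 reads in shCTR, 82 and 59 in shMETTL3 and 67 and 58 in shMETTL14, log2 fold changes of 1.38 and 1.22 on few reads.

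**Figure D4:**
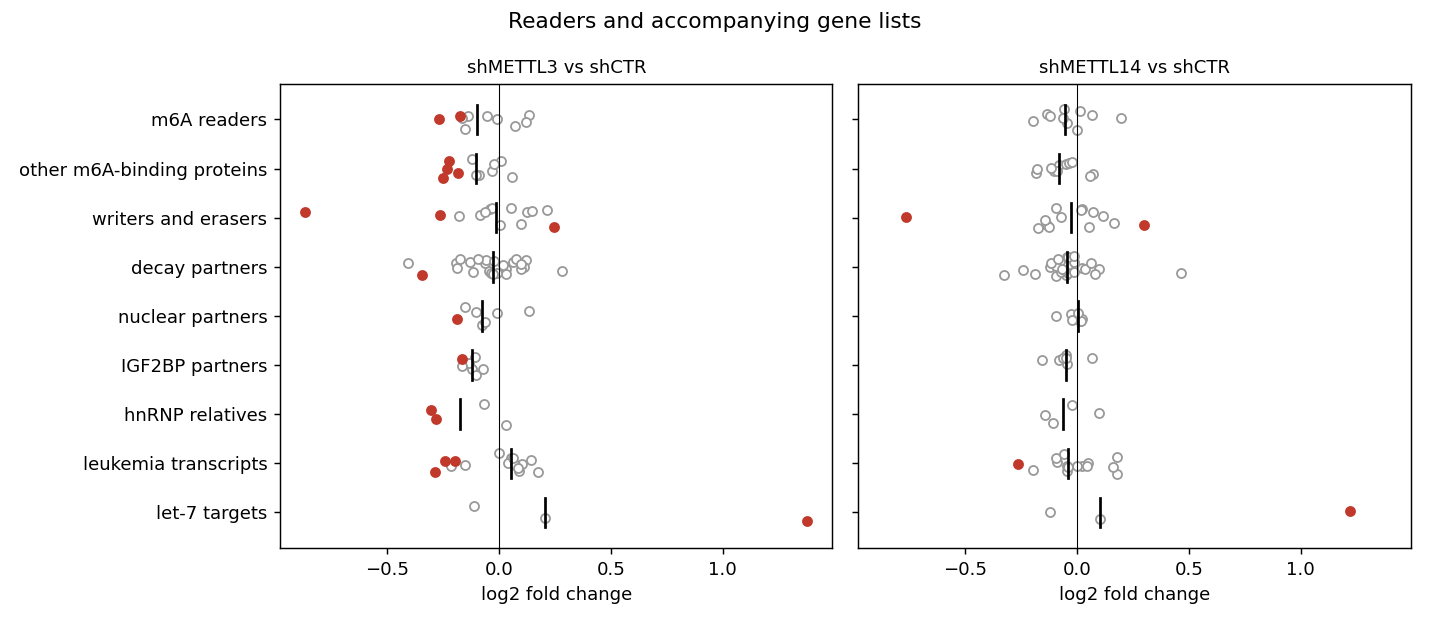
Log2 fold change from shCTR of the readers and of the 8 pathway lists, with the cell type markers not drawn, 1 point per tested gene, filled red where the edgeR adjusted p is under 0.05, with a bar at each list's median. Among the genes drawn, the points furthest left are METTL3 in shMETTL3 (-0.87) and METTL14 in shMETTL14 (-0.76), and the point furthest right is LIN28A.

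To place the readers among other genes, the profile over the 6 libraries (log2 CPM centred on the gene's mean) was compared by Euclidean distance with 15039 genes. For HNRNPC, whose own profile had a length of 0.272, the nearest were ATP5F1C (distance 0.0172), TFDP2 (0.0360) and SRD5A1 (0.0486). For YTHDF3, with a length of 0.221, they were CPOX (0.0424), ADO (0.0488) and RNF144A (0.0562). These are descriptions over 6 libraries.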

How the data were processed

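RNA-seq counts of 6 K562 libraries were analysed, grouped by the labels. The authors captured mRNA on oligo(dT) beads and deposited raw, unscaled counts of reads for each gene. The submitters' processing notes name HTSeq 0.6.1 and hg38, while the aligner and annotation release are not given in the sources used here. Rows outside the annotation held 0.635% to 0.703% of a library and stayed in its total. Gene symbols were matched for 56558 rows in a name table and for 497 more in GENCODE 29.

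The main test was run with edgeR 4.0.16 in R 4.3.3 (filterByExpr minimum count 10, TMM, quasi-likelihood test, 3 contrasts in 1 fit, Benjamini-Hochberg adjustment over 17686 genes, threshold 0.05). Intervals are 95%. Scripts were tested on simulated data. Replicates differed beyond sampling noise (mean chi-square per gene from 2.55 to 5.30). Alternatives were DESeq2 1.42.0, other scalings, no filter, compared groups only, a replicate block, a GC and length trend (mgcv 1.9.3; 94.2% of tested genes had values) and each library left out.

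The members and lists were proposed with earlier results of these data known, although the rule for the members uses symbols only. All readers are named, and from each list up to 3 genes with the largest log2 fold change past the threshold and at least 10 counts in every compared library. The 3 nearest profiles are named for the reader with the smallest p in each knockdown. CBX3, MALSU1, HNRNPA0 and RALY, and the list members' values in the knockdown where they did not pass, were added after values were seen. A marker gene's result is not reported here.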

Additional observations from a re-analysis of the deposited data

Results flagged for a closer look

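The tested difference between the knockdowns (shMETTL3 against shMETTL14, edgeR) passed the threshold for 1 of 10 readers and 8 genes of the pathway lists. Among the cell type markers reported here, 4 genes passed. Over all tested genes, 12.1% were called in this comparison. YTHDF1 differed by 0.27 on the log2 scale, higher in 2 of 2 shMETTL3 libraries. The targeted genes differed as labelled, METTL3 by -0.73 and METTL14 by 0.89. Among decay factors CNOT10 differed by -0.22 and RPP40 by 0.34, and among IGF2BP partners DHX9 by -0.20. HNRNPA1 differed by -0.16, HNRNPA3 by -0.17 and ALDH1A1 by -0.24. With DESeq2 none of CNOT10, RPP40 and DHX9 passed, and with library size alone neither hnRNP relative passed. Of the erythroid markers, HBE1 differed by 0.56 and HBZ by 0.96, and of the myelomonocytic ones, LYZ differed by -1.97 and MEIS1 by -0.59. The groups did not overlap for any of these genes. They were picked by passing the threshold in this same comparison, so this adds no further evidence. Over all genes, 56.7% did not overlap.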

How the results depend on the processing

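In shMETTL3 against shCTR, 2 readers were called. The count was 1 with library size alone, 4 with the replicate block and GC and length correction together, and from 1 to 5 with each library left out (5 without shCTR replicate 2, 1 without shCTR replicate 1 or either shMETTL3 library). In shMETTL14 against shCTR, where 0 were called, it was 2 with the GC and length correction, with or without the replicate block, and 0 to 0 with libraries left out. Between the knockdowns, 1 was called, against 2 with library size alone, 3 with the compared groups only, 2 with the replicate block, 2 with the block and the correction, and from 0 to 3 with libraries left out (0 without either shMETTL3 library or shMETTL14 replicate 1, 3 without either shCTR library). The replicate block gave 2, 0 and 2 readers. The numbers were not shown to pair the samples, since the deviations of same-numbered libraries correlated at 0.103, -0.020 and -0.045.

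Reversed signs were seen only among readers that were not called. With library size alone, the log2 fold change in shMETTL3 against shCTR was 0.0457 for YTHDF2 and 0.00140 for IGF2BP3, that of YTHDC2 in shMETTL14 was 0.0250, and that of YTHDF2 between the knockdowns was 0.00382. With the GC and length correction, YTHDF2 was at 0.00508 and IGF2BP3 at 0.0205 in shMETTL3, and YTHDC2 at 0.0650 in shMETTL14, while with the block added these were 0.00502, 0.0220 and 0.0669. YTHDC2 in shMETTL14 was at 4.00e-05 with the compared groups only and 0.00462 with the replicate block. With libraries left out, in shMETTL3 against shCTR IGF2BP3 ran from -0.169 to 0.0651 and YTHDF2 from -0.0420 to 0.0242. In shMETTL14 against shCTR, YTHDC1 ran from -0.146 to 0.0329, YTHDC2 from -0.118 to 0.125 and IGF2BP3 from -0.0446 to 0.190. Between the knockdowns YTHDF2 ran from -0.0562 to 0.00993 and IGF2BP2 from -0.0771 to 0.0126. The cause was not tested. Over all genes, shMETTL3 against shCTR gave 2912 calls, 1881 with DESeq2 and 1102 to 3569 with libraries left out, and shMETTL14 against shCTR gave 1184, 763, and 341 to 1913. With 2 libraries a group, small differences such as those of most readers cannot be separated from no difference.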

Other observations

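HNRNPC and METTL3 are neighbours on chromosome 14, separated by 228638 bases (chosen after seeing the data). Of the genes between them, 4 were tested (RPGRIP1, SUPT16H, CHD8 and RAB2B), and 0 were called by edgeR in any of the 3 comparisons. Their log2 fold changes in shMETTL3 against shCTR lay between -0.25 (RAB2B) and 0.66 (RPGRIP1, under 1 CPM), with a median of 0.03. HNRNPC was at -0.27. Over all tested genes, 16.5% were called in shMETTL3 and 6.69% in shMETTL14, each against shCTR, and 12.1% between the knockdowns. Whether the place of HNRNPC near METTL3 bears on its level was not tested.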
